A study of Mus musculus with 19 samples.

Results

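The genes described here are 9 members of the AP-1 and related basic leucine zipper (bZIP) family: Fos, Fosb, Fosl2, Jun, Junb, Jund, Atf3, Batf and Batf3. A member was taken from the probe sets annotated to only 1 gene symbol. Each of the 9 had 1 such probe set on the arrays, out of 19938 genes measured in this way. The rule used names and no measured value, although the members were chosen with earlier results of these data known.

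The study profiled purified mouse CD8 T lymphocytes, the killer lineage of T cells, on 19 Affymetrix gene arrays loaded with 0.125 µg of RNA each. Of these, 16 are labelled TCRP1A cells, whose transgenic T-cell receptor sees a known antigen, from Rag-1-/- mice of B10.D2 background. Naive cells (n = 4) were taken from the periphery without stimulation. Control effector cells (control 72 h, n = 4) had been activated with their cognate antigen for 72 h. Stat5ca 72 h cells (n = 2) had in addition received Stat5ca, an active form of the cytokine-responsive factor Stat5, and the labels call them GFP+. Control transfer cells (n = 2) were activated cells put into congenic hosts and taken back from spleen and lymph nodes on day 18 (array 30) and day 120 (array 32). Stat5ca transfer cells (n = 4) were recovered on day 20. T-betKO Stat5ca transfer cells (n = 3) lacked T-bet, the type 1 effector factor encoded by Tbx21, carried Stat5ca as well and were recovered on day 14 (arrays 39 and 40) and day 54 (array 41).

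Several features limit the groups as models. The labels name no array of cells that received an empty vector, so Stat5ca and the transduction itself cannot be told apart. The T-betKO cells are labelled strain C57BL/6 beside the B10.D2 background, were stimulated through CD3 and CD28 rather than with antigen, and followed another labelling protocol, so these differences and the loss of T-bet cannot be told apart. The series text speaks of TCRP1A cells for this experiment too, but the genotype label of these arrays names only the T-bet knockout, so whether they carry the TCRP1A receptor is not settled here. The 72 h groups came from culture and all others from mice, so time and source cannot be told apart. Whether arrays of a group stem from separate animals or cultures is not said, and p-values therefore measure the spread between these arrays, which may be technical.

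AP-1 is a dimer of bZIP proteins that binds DNA through a basic region and pairs through a leucine zipper. Fos proteins need a Jun partner to bind, whereas Jun proteins can also pair with each other. In T cells the complex is switched on by antigen-receptor and costimulatory signals through MAP kinases and acts with NFAT at cytokine genes, while Batf and Batf3, which lack a classical activation domain, pair with Jun proteins and act with Irf4 at composite sites. Atf3 is a stress-responsive member that often represses, and many Fos and Jun genes are immediate-early genes, transcribed within minutes of a stimulus without new protein synthesis.

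The stretches before the transcription starts are shown for Fos, Jun, Batf and Batf3. Fos and Jun had wide ranges of group means, and Batf moved the other way from Fos in control cells. Batf3 held the only match to a STAT site among the members within the 250 bases searched. The windows of Fosb and Atf3, whose group means ranged more widely than those of Jun and Batf, are not printed. The printed stretches are RefSeq sequences of build GRCm38.p6, 250 bases each, read 5′ to 3′ on the gene's strand and ending just before the annotated start. Capitals mark matches to the motifs searched on both strands.
Fos, chr12:85473640-85473889, plus strand: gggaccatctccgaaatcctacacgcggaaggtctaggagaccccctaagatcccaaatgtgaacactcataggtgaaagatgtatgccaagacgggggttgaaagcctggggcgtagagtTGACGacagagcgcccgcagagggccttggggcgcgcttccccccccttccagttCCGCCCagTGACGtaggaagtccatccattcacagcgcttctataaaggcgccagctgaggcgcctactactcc
Jun, chr4:95052223-95052472, minus strand: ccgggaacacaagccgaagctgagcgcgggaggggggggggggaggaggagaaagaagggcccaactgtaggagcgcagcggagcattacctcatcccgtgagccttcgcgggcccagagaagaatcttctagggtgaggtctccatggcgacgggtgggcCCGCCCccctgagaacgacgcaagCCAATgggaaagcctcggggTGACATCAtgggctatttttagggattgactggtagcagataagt
Batf, chr12:85686470-85686719, plus strand: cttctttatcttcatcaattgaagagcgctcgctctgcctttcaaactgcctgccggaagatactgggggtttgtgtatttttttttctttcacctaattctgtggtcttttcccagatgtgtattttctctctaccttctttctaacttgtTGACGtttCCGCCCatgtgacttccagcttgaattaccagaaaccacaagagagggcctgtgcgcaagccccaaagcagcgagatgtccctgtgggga
Batf3, chr1:191098164-191098413, plus strand: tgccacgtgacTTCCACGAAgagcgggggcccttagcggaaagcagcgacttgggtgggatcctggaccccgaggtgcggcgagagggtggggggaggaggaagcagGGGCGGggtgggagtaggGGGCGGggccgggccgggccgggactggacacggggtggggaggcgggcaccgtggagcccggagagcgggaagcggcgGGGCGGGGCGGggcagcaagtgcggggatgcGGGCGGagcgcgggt

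All 9 members had a promoter in the table, and none of the 9 windows held an AP-1 site (TGACTCA or TGAGTCA, found in 4.46% of 32851 promoters of this length), a CRE (TGACGTCA, 1.55%) or a serum response element (1.47%). The Jun window held TGACATCA beginning 45 bases before the start, a match carried on either strand by 2.93% of all promoters, together with a CCAAT box at 65 bases and a GC box at 89 bases. The Fos window held the partial CRE TGACG at 129 and at 66 bases, and the Batf window held it at 98 bases. That partial site, or CGTCA, was found in 17.8% of promoters and also lies within every CRE. The Batf3 window held the STAT site TTCCACGAA at 239 bases, of the form TTCNNNGAA that 7.02% of promoters carry, and 5 GC boxes (GGGCGG or CCGCCC, in 32.7% of promoters). The CCAAT box (CCAAT or ATTGG) was found in 33.8%. A match is a description of letters and was not tested as a binding site. Only the 250 bases before the start were searched, so a motif absent here may lie farther upstream or after the start. Fos and Batf lie on chromosome 12 with 1 protein-coding gene between them, Jdp2, which encodes a further bZIP factor, and Atf3 and Batf3 lie on chromosome 1 with Fam71a between them.

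The labels were checked against genes that should follow them. Stat5a was highest on the Stat5ca arrays, with 12.003 and 12.123 at 72 h and 11.54 to 11.81 after transfer, against 10.03 to 10.62 on the naive, control 72 h and control transfer arrays. On the T-betKO arrays Stat5a read 10.86 to 11.06. Tbx21 lay at 8.18 to 8.34 on the T-betKO arrays, against 11.77 to 11.97 on the Stat5ca transfer arrays. The mean of 12 T-cell markers lay between 11.67 and 12.64 on every array, and Cd3e, Cd8a and Cd8b1 were bright in every group. That mean was lowest on control transfer arrays 30 and 32, at 11.85 and 11.67, and T-betKO arrays 39 and 40, at 11.84 and 11.72. It was 12.24 or more on every other array. The B-cell genes Cd79a and Pax5 had group means under the level of genes taken as silent, a log2 signal of 7.32, which is the 95th percentile of 1194 olfactory and vomeronasal receptor genes. Of the 7 B-cell markers measured, 1 to 3 were above that level on each array, and their mean lay between 6.86 and 7.15.

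The mean of 19 myeloid markers differed between groups, from 6.84 to 6.90 at Stat5ca 72 h, through 7.68 to 8.38 at control 72 h and 9.33 to 10.37 after Stat5ca transfer, to 12.10 to 12.23 after control transfer. All 19 were above 7.32 on the control transfer arrays, and 4 or 5 of them on the Stat5ca 72 h arrays. The defining genes Csf1r, Adgre1, Lyz2 and C1qa were far above that level in all transfer groups, and Csf1r, Adgre1 and Lyz2 were under it at Stat5ca 72 h; Lyz2 had a mean of 11.92 at control 72 h. Among naive arrays the myeloid mean was 11.57 and 11.42 on arrays 34 and 36 but 7.60 and 8.41 on arrays 33 and 35, and on T-betKO arrays 39, 40 and 41 it was 12.06, 11.98 and 10.43. In such bulk samples, fewer cells of a type and less RNA per cell cannot be told apart. Across the 19 arrays the myeloid mean had a Pearson r of 0.79 with Junb, 0.76 with Fos, 0.74 with Fosb, 0.73 with Atf3, 0.69 with Fosl2, 0.50 with Jun, 0.31 with Batf3, 0.29 with Jund and −0.59 with Batf; these arrays share their groups, so r is a description. Markers of other cell types moved too. The mean of 6 neutrophil markers was 6.83 to 6.90 at Stat5ca 72 h, 7.72 to 8.28 at control 72 h, 12.21 to 12.59 after control transfer, 8.44 to 10.08 after Stat5ca transfer and 9.57 to 11.59 on T-betKO arrays, and among naive arrays it ran from 7.08 to 13.07. The mean of 5 dendritic cell markers was 7.26 to 7.42 in culture, 8.04 to 9.56 on naive arrays and 9.13 to 10.41 after transfer, and that of 2 erythroid markers reached 10.84 on control transfer array 32. The part of these cells in the members' changes was not tested. The fits with the myeloid mean as covariate cannot decide it. Apart from the naive group, no groups overlapped in that mean, so myeloid level and group cannot be told apart in those fits.

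**Figure D1:**
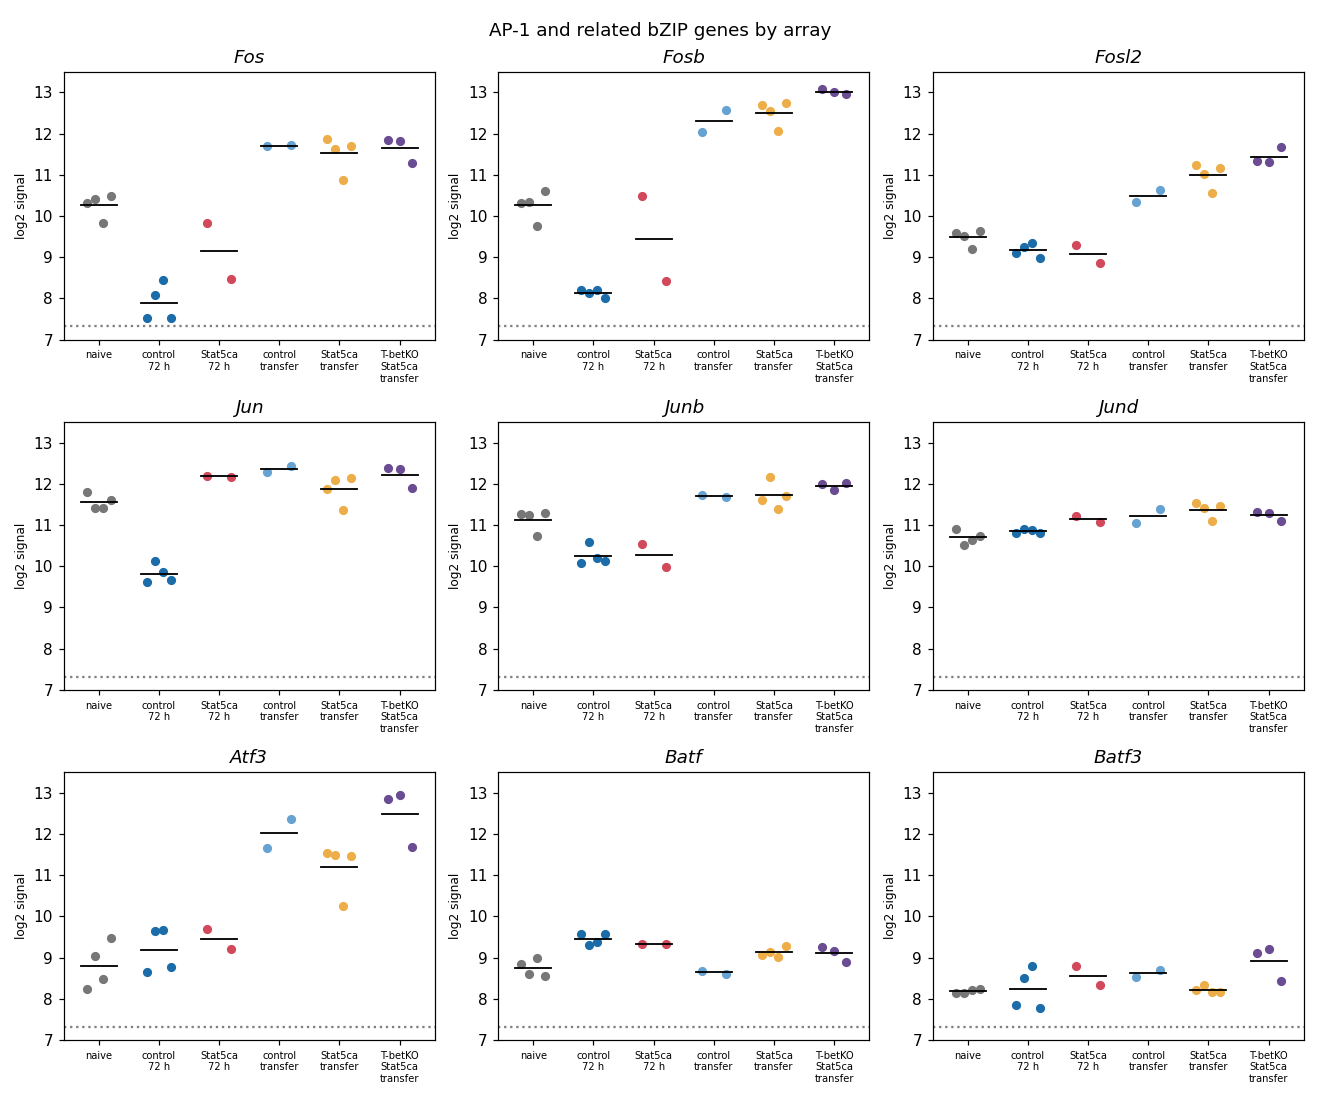
Log2 signal of the 9 members (vertical axis) on each of the 19 arrays, in 6 groups along the horizontal axis; each point is 1 array, bars are group means and the dotted line is the level of silent genes, 7.32. Fos, Fosb and Junb are lowest at control 72 h and high in the transfer groups, Jun is low on the 4 control 72 h arrays alone, and Batf is highest in culture.

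Fos, the founding partner of Jun proteins, read 10.33, 10.42, 9.82 and 10.48 on naive arrays 33 to 36. It read 7.53, 8.09, 8.44 and 7.53 on control 72 h arrays 1 to 4, and 9.83 and 8.47 on Stat5ca 72 h arrays 9 and 10. All 4 control 72 h arrays lay under every naive array, and array 9 lay within the naive range while array 10 lay close to the control 72 h arrays. After transfer, Fos read 11.70 and 11.72 in control cells, 11.88, 11.63, 10.87 and 11.71 in Stat5ca cells and 11.84, 11.83 and 11.28 in T-betKO Stat5ca cells. These 9 arrays lay above all naive and culture arrays. At control 72 h Fos fell 5.16-fold against naive cells, by −2.37 ± 0.29 (log2 difference ± SE, adjusted p = 1.18e-05, limma with Benjamini-Hochberg adjustment over all genes). It rose by 1.44 ± 0.35 from naive cells to control transfer cells (adjusted p = 0.0132), and the adjusted p was 0.151 with the myeloid mean as covariate, 0.0753 without array 30 and 0.100 without array 32. From control 72 h to control transfer the rise was 3.81 ± 0.35, or 14.0-fold (adjusted p = 1.07e-06).

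Neither Stat5ca comparison called Fos. At 72 h the Stat5ca arrays were higher by 1.26 ± 0.35 with an adjusted p of 0.0510, just over the threshold of 0.05. This difference was called under some alternatives. Among them were leaving out dim genes (adjusted p = 0.0437) and adding the 3 T-betKO arrays to the fit (0.0464). Without Stat5ca array 10 the difference was 1.94. Array 10 itself read 8.47, close to control 72 h array 3 at 8.44. Most of the difference therefore came from array 9, which read 9.83. After transfer the Stat5ca and control arrays overlapped, with a difference of −0.18 ± 0.35 (adjusted p = 0.764).

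Fosb, which also encodes the truncated and long-lived ΔFosB by splicing, read 10.33, 10.33, 9.76 and 10.61 on naive arrays 33 to 36. It fell to 8.20, 8.13, 8.20 and 8.02 on control 72 h arrays 1 to 4. The Stat5ca 72 h arrays stood far apart from each other, at 10.48 on array 9 and 8.42 on array 10. Both lay above all control 72 h arrays, by 1.31 ± 0.39 in the mean (adjusted p = 0.0629). The adjusted p was 0.0364 with the myeloid covariate and 0.0499 with the T-betKO arrays in the fit. Without array 10 the difference was 2.34. Array 10 itself read 8.42 against a control 72 h mean of 8.14, so most of the difference came from array 9. After transfer Fosb was brighter than on any other array, with 12.04 and 12.56 in control cells, 12.69, 12.56, 12.06 and 12.74 in Stat5ca cells and 13.08, 13.01 and 12.96 in T-betKO Stat5ca cells. The T-betKO arrays were all above the Stat5ca arrays, but the difference of 0.50 ± 0.33 was not called (adjusted p = 0.307). Fosb fell by −2.12 ± 0.32 from naive cells to control 72 h (adjusted p = 8.5e-05) and rose by 2.04 ± 0.39 from naive cells to control transfer (adjusted p = 0.0036, and 0.0648 without array 32). Between control 72 h and control transfer the rise was 4.16 ± 0.39, or 17.9-fold, the largest fold of any member in the 8 comparisons.

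Fosl2, encoding the Fos-related antigen Fra-2, followed another course before transfer. It read 9.60, 9.51, 9.20 and 9.64 on naive arrays 33 to 36, 9.10, 9.26, 9.35 and 8.99 on control 72 h arrays 1 to 4, and 9.30 and 8.86 on the Stat5ca 72 h arrays. These groups overlapped, and the difference between control 72 h and naive cells, −0.31 ± 0.15, was not called (adjusted p = 0.102). After transfer Fosl2 read 10.33 and 10.63 in control cells, 11.25, 11.01, 10.56 and 11.17 in Stat5ca cells and 11.35, 11.31 and 11.67 in T-betKO Stat5ca cells. Its group means stepped up from control transfer, 10.48 ± 0.21 (SD, n = 2), to Stat5ca transfer, 10.998 ± 0.31 (SD, n = 4), to T-betKO Stat5ca transfer, 11.44 ± 0.20 (SD, n = 3). Neither single step was called, at 0.52 ± 0.19 (adjusted p = 0.0568) and 0.44 ± 0.16 (adjusted p = 0.0668), although the first was called when dim genes were left out (adjusted p = 0.0460) or without Stat5ca array 13 (0.66, adjusted p = 0.00984). The end points, a pair picked after its values were seen, differed by 0.96 ± 0.20 (adjusted p = 0.0112, and 0.152 without control array 30) in a comparison with 3.4% of genes called. Fosl2 rose by 0.995 ± 0.187 from naive cells to control transfer (adjusted p = 0.0033, and 0.0648 without array 32).

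Jun, encoding c-Jun, separated from the Fos genes in culture. It read 11.79, 11.40, 11.42 and 11.61 on naive arrays 33 to 36 and dropped to 9.61, 10.12, 9.87 and 9.68 on control 72 h arrays 1 to 4. On the Stat5ca 72 h arrays it read 12.19 and 12.17, above every naive array. The lowest of the other 15 arrays read 11.37, so the 4 control 72 h arrays stood alone at the bottom. The fall from naive cells to control 72 h was −1.74 ± 0.16, or 3.33-fold (adjusted p = 5.54e-07). The rise from control 72 h to Stat5ca 72 h was 2.36 ± 0.19, or 5.15-fold (adjusted p = 1.03e-05), the seventh smallest p of all genes in that comparison.

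After transfer Jun was high with and without Stat5ca. It read 12.30 and 12.43 in control cells, 11.88, 12.10, 11.37 and 12.15 in Stat5ca cells and 12.39, 12.35 and 11.89 in T-betKO Stat5ca cells. Both control transfer arrays were above all Stat5ca transfer arrays, but the difference of −0.49 ± 0.19 was not called (adjusted p = 0.0759, and 0.0477 without Stat5ca array 14). The Stat5ca effect after transfer minus that at 72 h was −2.85 ± 0.27 (adjusted p = 2.6e-05). It was −2.87 with the myeloid mean as covariate (adjusted p = 7.58e-06) and between −2.79 and −2.92 when array 9, 10, 30 or 32 was left out, each time called. Jun rose by 0.81 ± 0.19 from naive cells to control transfer (adjusted p = 0.0113), with an adjusted p of 0.0618 with the myeloid covariate, 0.0505 without array 30 and 0.111 without array 32.

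**Figure D2:**
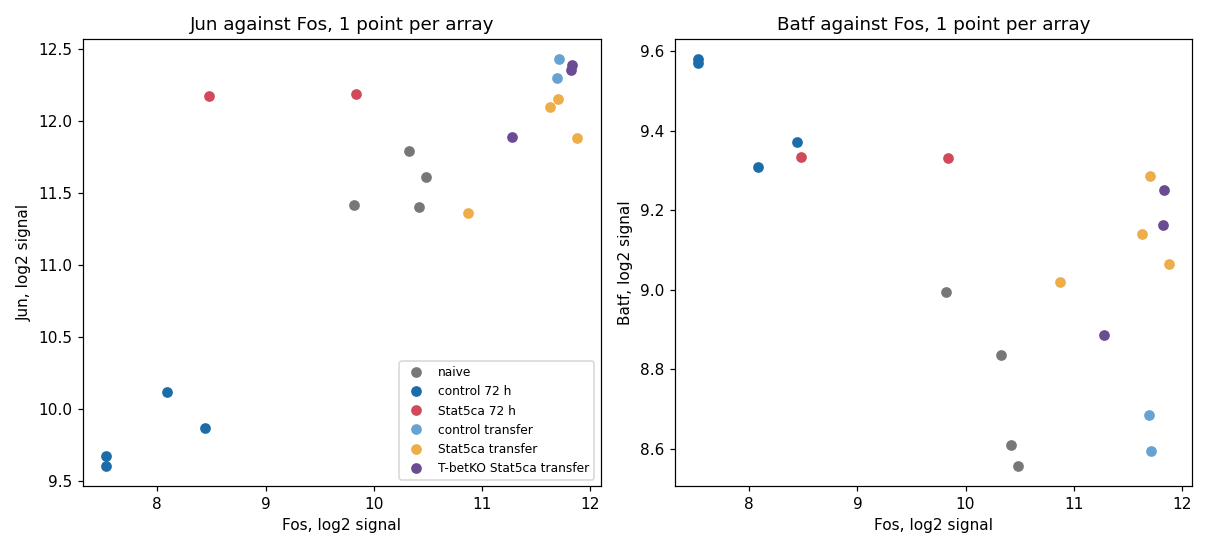
Log2 signal of Jun (left, vertical axis) and of Batf (right, vertical axis) against that of Fos (horizontal axes), 1 point per array, coloured by group. The Stat5ca 72 h arrays hold Jun at 12.19 and 12.17 with Fos at 9.83 and 8.47, apart from the other arrays, and the control transfer arrays combine Fos at 11.70 and 11.72 with Batf at 8.69 and 8.59.

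Junb, whose protein is known for weaker activation than c-Jun, read 11.28, 11.23, 10.74 and 11.29 on naive arrays 33 to 36. It read 10.07, 10.58, 10.20 and 10.12 on control 72 h arrays 1 to 4 and 10.55 and 9.99 on the Stat5ca 72 h arrays, so every culture array was under every array from mice. The 72 h groups with and without Stat5ca overlapped, with a difference of 0.02 ± 0.22 (adjusted p = 0.971). After transfer it read 11.73 and 11.68 in control cells, 11.61, 12.17, 11.39 and 11.69 in Stat5ca cells and 11.996, 11.86 and 12.02 in T-betKO Stat5ca cells. Junb fell by −0.89 ± 0.18 from naive cells to control 72 h (adjusted p = 0.00092) and rose by 1.46 ± 0.22 from there to control transfer (adjusted p = 7.7e-05). Between naive and control transfer cells the difference of 0.57 ± 0.22 was not called (adjusted p = 0.0812).

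Jund, the Jun gene known for steady expression, had the smallest range of group means among the members, 0.67. It read 10.90, 10.52, 10.64 and 10.74 on naive arrays 33 to 36, 10.81 to 10.89 on the 4 control 72 h arrays and 11.22 and 11.07 on the Stat5ca 72 h arrays. After transfer it read 11.05 and 11.38 in control cells, 11.53, 11.41, 11.10 and 11.46 in Stat5ca cells and 11.32, 11.29 and 11.10 in T-betKO Stat5ca cells. The 9 transfer arrays were all above the naive arrays, and the rise from naive to control transfer cells was 0.51 ± 0.13 (adjusted p = 0.0151). That call was lost with the myeloid covariate (0.58, adjusted p = 0.0584) and without array 32 (0.35, adjusted p = 0.222). The rise from control 72 h to control transfer, 0.37 ± 0.13 (adjusted p = 0.0358), was lost when arrays were centred on their medians (adjusted p = 0.0769), with RNA integrity (0.177) or the myeloid mean (0.129) as a covariate and without array 1, 4 or 32.

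Atf3 was low before transfer, though above the silent level of 7.32 on every array, and among the most changed genes after it. It read 8.23, 9.04, 8.47 and 9.47 on naive arrays 33 to 36, 8.65, 9.64, 9.67 and 8.76 on control 72 h arrays 1 to 4, and 9.69 and 9.22 on the Stat5ca 72 h arrays. These 3 groups overlapped and no difference between them was called. After transfer Atf3 read 11.67 and 12.36 in control cells, 11.55, 11.49, 10.26 and 11.46 in Stat5ca cells and 12.85, 12.96 and 11.69 in T-betKO Stat5ca cells. All 9 transfer arrays lay above all 10 others, and array 13 was the lowest of them. The rise from naive to control transfer cells was 3.21 ± 0.42, or 9.28-fold (adjusted p = 0.000315), the sixteenth largest change of all genes in that comparison.

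Stat5ca transfer cells were lower than control transfer cells by −0.83 ± 0.42, with no overlap, but this was not called (adjusted p = 0.173). T-betKO Stat5ca cells were higher than Stat5ca cells by 1.31 ± 0.39 (adjusted p = 0.0269), and every T-betKO array was above every Stat5ca array. That call was lost with RNA integrity as a covariate (0.92, adjusted p = 0.307), with the myeloid covariate (0.87, adjusted p = 0.103) and without array 13 (0.996), 39 (1.13) or 40 (1.08). The RNA integrity numbers of arrays 39, 40 and 41 were 7, 6 and 8, against 8 to 10 elsewhere. On day 54, T-betKO cells read 1.21 lower in Atf3 than the mean of both day 14 arrays, and their myeloid mean was lower as well; day and array cannot be told apart.

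Batf, which pairs with Jun proteins and acts with Irf4, moved the other way from Fos in control cells. It read 8.84, 8.61, 8.99 and 8.56 on naive arrays 33 to 36, 9.58, 9.31, 9.37 and 9.57 on control 72 h arrays 1 to 4, and 9.33 on each Stat5ca 72 h array. After transfer it read 8.69 and 8.59 in control cells, 9.07, 9.14, 9.02 and 9.29 in Stat5ca cells and 9.25, 9.16 and 8.89 in T-betKO Stat5ca cells. The 6 culture arrays, from 9.31 to 9.58, lay above all 13 arrays from mice, from 8.56 to 9.29. Batf rose by 0.71 ± 0.10, or 1.63-fold, from naive cells to control 72 h (adjusted p = 4.7e-05) and fell by −0.82 ± 0.12 from there to control transfer (adjusted p = 8.31e-05).

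Stat5ca cells read higher in Batf after transfer than control cells. All 4 Stat5ca arrays were above both control arrays, by 0.49 ± 0.12 or 1.40-fold (adjusted p = 0.0087). With the myeloid covariate the difference was 0.36 (adjusted p = 0.0852), and without array 32 it was 0.44 (adjusted p = 0.0900). At 72 h the difference was −0.13 ± 0.12 (adjusted p = 0.625), and the effect after transfer minus that at 72 h was 0.61 ± 0.17 (adjusted p = 0.0234). This last call was lost when array 9, 10, 30 or 32 was left out, with adjusted p from 0.0505 to 0.0961. T-betKO Stat5ca and Stat5ca cells overlapped, with a difference of −0.03 ± 0.11 (adjusted p = 0.901).

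Batf3, required for the cross-presenting dendritic cell lineage and also expressed in activated T cells, had group means within 0.73 of each other. It read 8.13, 8.14, 8.21 and 8.23 on naive arrays 33 to 36, 7.86, 8.51, 8.79 and 7.78 on control 72 h arrays 1 to 4, and 8.79 and 8.34 on the Stat5ca 72 h arrays. After transfer it read 8.54 and 8.70 in control cells, 8.23, 8.32, 8.18 and 8.17 in Stat5ca cells and 9.10, 9.21 and 8.42 in T-betKO Stat5ca cells. The T-betKO arrays were above all Stat5ca transfer arrays, by 0.69 ± 0.22 (adjusted p = 0.0318). That call was lost with RNA integrity (0.44, adjusted p = 0.366) or the myeloid mean (0.65, adjusted p = 0.0703) as a covariate, without array 39 or 40, and when any 1 of the 4 Stat5ca arrays was left out. The dendritic marker mean of these T-betKO arrays was 9.82, 9.72 and 9.13, against 9.20 to 9.40 on the Stat5ca transfer arrays, and its part in the result was not tested. None of the other 7 comparisons called Batf3.

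**Figure D3:**
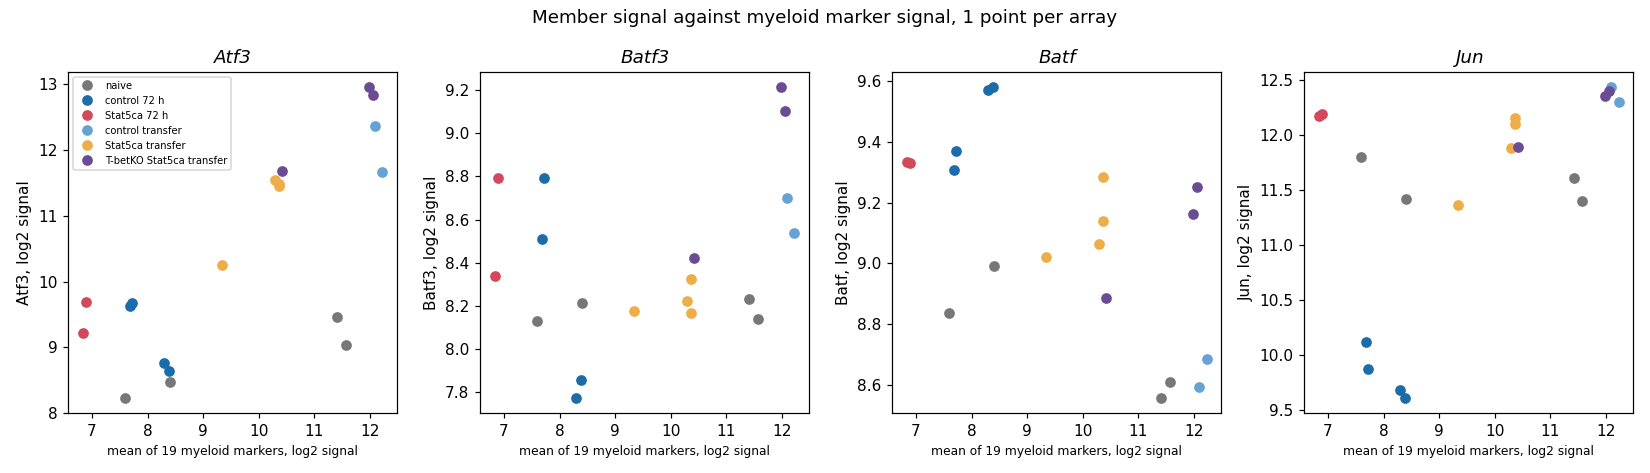
Log2 signal of Atf3, Batf3, Batf and Jun (vertical axes) against the mean log2 signal of 19 myeloid markers (horizontal axes), 1 point per array, coloured by group. T-betKO arrays 39 and 40 are high in Atf3, Batf3 and the myeloid mean, naive arrays 34 and 36 are high in the myeloid mean with Atf3 at 9.04 and 9.47, and the Stat5ca 72 h arrays hold high Jun at the lowest myeloid means.

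Among 45 pairs of neighbouring groups in the members' orders of levels, 8 were called. The pairs were set by the same means that were then compared, and such pairs were not counted over all genes, so the count is a description. The shares below are of all genes in the comparison. Stat5ca transfer stood above naive cells in Fos by 1.26 ± 0.29 (adjusted p = 0.00432), in a comparison with 28.6% of genes called. Naive cells stood above Stat5ca 72 h in Fos by 1.11 ± 0.35 (adjusted p = 0.0289) and in Junb by 0.87 ± 0.22 (adjusted p = 0.0075), again with 28.6% of genes called. The Fos difference was lost with arrays centred on their medians (0.98, adjusted p = 0.0531) and without naive array 34 (1.06, adjusted p = 0.0542) or 36 (1.04, adjusted p = 0.0609), and both were lost with the myeloid covariate and without array 10 (0.43 for Fos, 0.59 for Junb). T-betKO Stat5ca cells stood above naive cells in Batf by 0.35 ± 0.11 (adjusted p = 0.0353, with 22.5% of genes called), which was 0.06 with RNA integrity as a covariate (adjusted p = 0.878), 0.40 with the myeloid covariate (adjusted p = 0.0503) and was also lost without array 34, 36, 39 or 40. The other 4 are given with the genes or the comparisons: control transfer over naive in Fosb and Fosl2, naive over control 72 h in Jun, and Stat5ca transfer over Stat5ca 72 h in Atf3.

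The remaining neighbouring pairs had no called difference. In Fos, Fosb and Junb the 3 transfer groups held the top places with no step called between them, and in Jund and Batf3 no step of the order was called. In Jun, the order from control transfer through T-betKO Stat5ca transfer, Stat5ca 72 h and Stat5ca transfer to naive cells had no called step. Some neighbouring pairs fall outside the study's comparisons. The share of genes called was 30.9% for T-betKO Stat5ca transfer against Stat5ca 72 h, 33.1% for control transfer against Stat5ca 72 h and 29.1% for Stat5ca transfer against control 72 h. No neighbouring pair of a member was called in these, but neighbours are a member's closest groups. Fos, Fosb, Fosl2, Junb and Atf3, not neighbours there, were called higher after transfer in each. Batf was called lower for control transfer against Stat5ca 72 h and for Stat5ca transfer against control 72 h, and Jun and Jund were called higher in the latter alone.

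**Figure D4:**
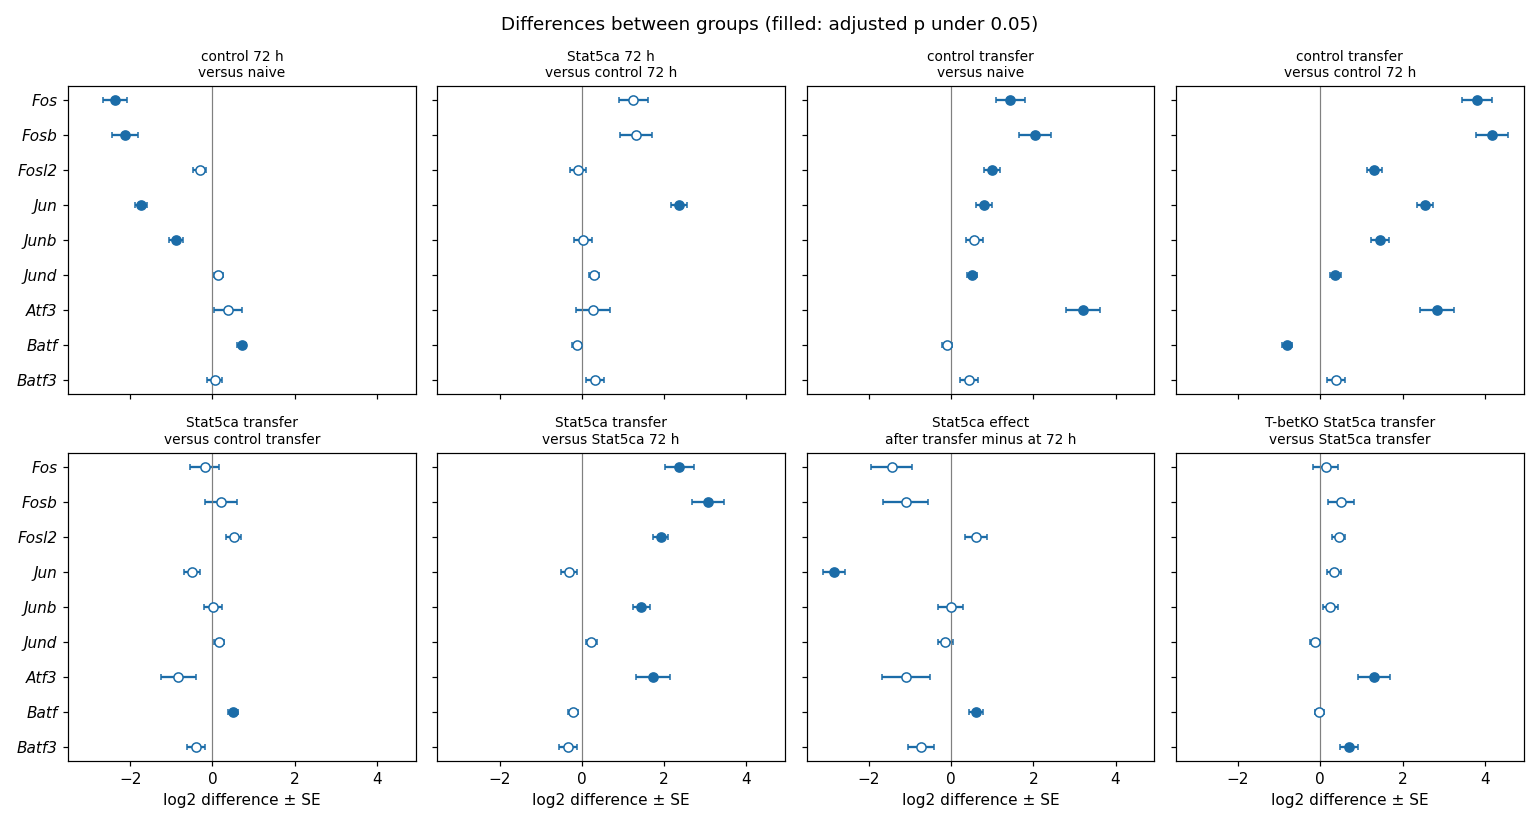
Log2 difference ± SE of the 9 members in the 8 comparisons, 1 panel each, from limma; filled points have an adjusted p under 0.05. The filled points lie left of 0 for Fos, Fosb, Jun and Junb at control 72 h against naive, right of 0 for all members but Batf and Batf3 at control transfer against control 72 h, and at 2.36 for Jun alone at Stat5ca 72 h against control 72 h.

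Against naive cells, control effector cells at 72 h showed lower Fos, Fosb, Jun and Junb and higher Batf. Of the 9 members 1 rose, 4 fell and 4 were not called, in a comparison where 46.8% of all genes were called. The median change was −0.31 over the members and −0.09 over all genes, and the latter was 0.04 with arrays centred on their medians. Of the 30 other bZIP genes measured, 7 rose and 8 fell: Nfil3, a circadian and cytokine-responsive repressor, rose by 1.28 ± 0.26 (adjusted p = 0.00103) and Jdp2 by 1.07 ± 0.14 (adjusted p = 1.79e-05), while Maf fell by −1.47 ± 0.31 (adjusted p = 0.00132). Irf4, the partner of Batf at composite sites, rose by 2.75 ± 0.21 (adjusted p = 9.15e-08). Of 16 other immediate-early genes, 6 rose and 4 fell. Among them the orphan nuclear receptors Nr4a2 and Nr4a3 rose by 2.34 ± 0.34 and 2.23 ± 0.27, and Dusp1, a phosphatase of MAP kinases, fell by −2.55 ± 0.24 (adjusted p = 7.37e-07). Of 15 upstream kinases and factors, 6 rose and 3 fell, with Map2k3 up by 0.78 ± 0.12 and Prkcq, the T-cell protein kinase C theta, down by −0.58 ± 0.08. Of 11 genes with textbook AP-1 sites, 3 rose and 2 fell, with Il2ra, the IL-2 receptor alpha chain, up by 4.04 ± 0.29 and Cd69 down by −1.02 ± 0.18.

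At 72 h, Stat5ca went with higher Jun and with called changes among the other immediate-early genes. Of the members 1 rose, 0 fell and 8 were not called, against 5.72% of all genes. At an unadjusted limma p under 0.05, 4 of the 9 passed. The weakest of these, Jund, ranked 3495 of 19938 genes by p, so many other genes passed as well. Of 16 other immediate-early genes, 5 rose and 2 fell: Zfp36, whose protein destabilises cytokine mRNAs, rose by 1.60 ± 0.36 (adjusted p = 0.0177), Dusp1 by 1.59 ± 0.29 (adjusted p = 0.00602) and Ppp1r15a, a stress-response phosphatase subunit, by 1.59 ± 0.24 (adjusted p = 0.00177), while Egr2 fell by −1.75 ± 0.19 (adjusted p = 0.000231). Among 30 other bZIP genes, 3 rose and 0 fell, namely Dbp (1.27 ± 0.26), Mafk (0.60 ± 0.12) and Atf4 (0.50 ± 0.12). Among 15 upstream genes, Mef2d alone was called, at 0.69 ± 0.17, and of 11 genes with AP-1 sites, Cd69 alone, at 0.90 ± 0.22. Of 5 composite-site partners 0 were called by limma. Of these 9 named genes, Egr2 and Ppp1r15a stayed called without either Stat5ca array; without array 9, Dusp1 was 0.91 (adjusted p = 0.0931) and Cd69 was 0.57 (adjusted p = 0.348), and the other 5 also lost their calls without array 9 or 10. Atf4, Cd69 and Mef2d further lost them without array 1 or 4 and with RNA integrity as a covariate, and Atf4 with arrays centred on their medians.

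Control cells recovered after transfer, compared with naive cells, had higher Fos, Fosb, Fosl2, Jun, Jund and Atf3. Of the members 6 rose, 0 fell and 3 were not called, against 17.7% of all genes. The median change was 0.81 over the members and −0.12 over all genes. With the myeloid covariate 3 members were called. The share of all genes called in that fit is not given here, and the 17.7% belongs to the fit without the covariate. Leaving out array 32, the day 120 array, leaves 1 control transfer array. Over the fits with 1 array left out, members called ran from 1 to 6 and all genes called from 840 to 4693, against 3538 with every array. Of 16 other immediate-early genes, 11 rose and 0 fell, with Nr4a1 up by 2.17 ± 0.47 (adjusted p = 0.00686) and Dusp1 by 1.44 ± 0.29 (adjusted p = 0.0048). Both lost their calls without array 32 (2.05 and 1.40) and with the myeloid covariate (1.16 and 0.98). Of 30 other bZIP genes, 8 rose and 2 fell, and Maf rose by 2.17 ± 0.38 (adjusted p = 0.00206). Of the 11 genes with AP-1 sites, 4 rose and 1 fell, with Ifng, the interferon gamma gene, up by 3.49 ± 0.31 (adjusted p = 1.54e-05). Of 15 upstream genes, 2 rose and 2 fell, and of 5 composite-site partners 0 were called.

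Control transfer cells also differed from control 72 h cells, with more members called than in any other of the 8 comparisons. Of the 9, 7 rose, 1 fell (Batf) and 1 was not called (Batf3), against 37.5% of all genes. The median was 1.46 over the members and −0.04 over all genes. Atf3 rose by 2.84 ± 0.42, Jun by 2.55 ± 0.19 and Fosl2 by 1.31 ± 0.19. Of 30 other bZIP genes, 15 rose and 7 fell. Maf rose by 3.63 ± 0.38, and Nfe2, known from erythroid and megakaryocytic cells, rose by 1.25 ± 0.30 but was −0.15 with the myeloid covariate. Dusp1 rose by 3.98 ± 0.29 and Ppp1r15a by 2.43 ± 0.24 among the 7 of 16 other immediate-early genes that rose, and 2 fell. Of 5 composite-site partners 1 rose and 1 fell: Irf4 fell by −2.05 ± 0.26 (adjusted p = 1.64e-05), as Batf did, and Nfatc2 rose by 0.43 ± 0.11. Of 15 upstream genes 2 rose and 5 fell, with Mapk14, encoding p38 alpha, up by 1.02 ± 0.13. Of 11 genes with AP-1 sites 3 rose and 3 fell. This and the preceding comparison share the control transfer arrays, and both 72 h comparisons share the control 72 h arrays.

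After transfer, Stat5ca went with higher Batf among the members and with higher signal of several AP-1-site genes. Of the members 1 rose, 0 fell and 8 were not called, against 25.4% of all genes. At an unadjusted limma p under 0.05, 3 of the 9 passed. The weakest of these, Jun, ranked 5807 of 19938 genes by p, so such p-values were common over all genes. Of 5 composite-site partners, 2 rose and 0 fell: Irf4 by 1.40 ± 0.26 (adjusted p = 0.00122) and Nfatc2 by 0.77 ± 0.11 (adjusted p = 0.000279). Of 11 genes with AP-1 sites, 7 rose and 0 fell, among them Il2ra by 2.99 ± 0.35, Fasl, the death ligand gene, by 1.69 ± 0.31 and Ifng by 1.56 ± 0.31. Among 30 other bZIP genes, 3 rose and 7 fell, with Maf down by −2.43 ± 0.38 (adjusted p = 0.000398). The myeloid mean was lower in the Stat5ca group, at 9.33 to 10.37 against 12.10 to 12.23, and Maf stayed called with it as a covariate. Of 16 other immediate-early genes 4 rose and 2 fell, with Myc up by 1.08 ± 0.16 and Dusp2 by 1.07 ± 0.22. Among 15 upstream genes, 2 rose and 2 fell, with Mapk14 down by −0.57 ± 0.13.

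Within Stat5ca cells, transfer went with higher Fos, Fosb, Fosl2, Junb and Atf3 and left Jun uncalled. Of the members 5 rose, 0 fell and 4 were not called, against 21.3% of all genes. Fosb rose by 3.06 ± 0.39 or 8.34-fold, Fos by 2.37 ± 0.35, Fosl2 by 1.92 ± 0.19 and Junb by 1.45 ± 0.22. Atf3 rose by 1.74 ± 0.42 (adjusted p = 0.00724), which was 0.91 with the myeloid covariate (adjusted p = 0.269) and 1.501 without array 10 (adjusted p = 0.106). Jun differed by −0.31 ± 0.19 (adjusted p = 0.318). Of 16 other immediate-early genes 8 rose and 0 fell, with Nr4a1 up by 2.71 ± 0.47 and Klf6 by 2.00 ± 0.12. Of the 30 other bZIP genes, 7 rose and 4 fell, with Nfil3 up by 1.45 ± 0.32 (adjusted p = 0.0039, with 0.127 under the myeloid covariate and 0.0759 without array 10) and Dbp, a circadian output factor, down by −1.35 ± 0.26 (adjusted p = 0.00157, and 0.0596 with the myeloid covariate). Among 15 upstream genes, 4 rose and 5 fell, with Mapk8 up by 0.88 ± 0.11. Of 5 composite-site partners 1 rose and 1 fell: Nfatc2 by 0.91 ± 0.11 and Irf4 by −1.17 ± 0.26 (adjusted p = 0.00389, with 0.0714 under the myeloid covariate and 0.0548 without array 10). Of 11 genes with AP-1 sites 6 rose and 0 fell, with Ifng up by 3.76 ± 0.31.

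The Stat5ca effect itself differed between the times for 2 members, 1 upward (Batf) and 1 downward (Jun), against 17.8% of all genes. Zfp36 and Dusp1, which had risen with Jun at 72 h, had lower Stat5ca effects after transfer, by −1.70 ± 0.51 (adjusted p = 0.0308) and −1.59 ± 0.41 (adjusted p = 0.0144). Both lost their calls without array 9 (−1.40 and −0.92) and without array 32 (−1.66 and −1.56), and with RNA integrity as a covariate (adjusted p = 0.0690 and 0.0650). Zfp36 also lost its call without array 4, 13 or 30 and with an intensity trend in the spread (adjusted p = 0.0587). Of 16 such genes 5 had a higher and 3 a lower effect after transfer. Of 11 genes with AP-1 sites 4 had a higher effect and 0 a lower one, led by Il2ra at 2.32 ± 0.50, and of 30 other bZIP genes 2 were higher and 4 lower, led by Maf at −2.29 ± 0.53. Of 15 upstream genes Mapk14 alone was called, at −0.57 ± 0.18 (adjusted p = 0.0390), and lost the call when array 1, 3, 4, 9, 10, 11, 13, 14, 30 or 32 was left out, with arrays centred on their medians, with RNA integrity as a covariate and with the T-betKO arrays in the fit. Of 5 composite-site partners 0 were called by limma.

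T-betKO Stat5ca cells had higher Atf3 and Batf3 than Stat5ca cells after transfer. Of the members 2 rose, 0 fell and 7 were not called, against 20.8% of all genes, and both calls were lost under the covariates named above. Of 30 other bZIP genes 5 rose and 1 fell, with Maf up by 2.04 ± 0.37 (adjusted p = 0.0014), which stayed called under every alternative run. Of 5 composite-site partners 1 rose and 2 fell, and Irf4 rose by 0.93 ± 0.22 (adjusted p = 0.00756, and 0.0850 with RNA integrity as a covariate). Of 11 genes with AP-1 sites 3 rose and 3 fell: Ifng fell by −1.50 ± 0.29 (adjusted p = 0.00237), and Il4, a type 2 cytokine gene, had a mean of 8.28 in T-betKO cells against 6.94, under the silent level, in Stat5ca cells. Of 16 other immediate-early genes 2 rose and 2 fell, with Egr2 up by 1.86 ± 0.29 (adjusted p = 0.00054) and Myc down by −0.70 ± 0.14 (adjusted p = 0.00299, and 0.0797 with RNA integrity as a covariate). Of 15 upstream genes Prkcq alone was called, at −0.59 ± 0.16. It was −0.33 with RNA integrity as a covariate (adjusted p = 0.330) and −0.40 with the myeloid covariate (adjusted p = 0.0587), and it also lost the call without array 39 or 40 and with only the 2 compared groups in the fit (adjusted p = 0.0775).

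The members fell into patterns of their own across the 19 arrays. Fos ran closely with Fosb (Pearson r = 0.97) and Junb (0.94), and Fosb with Fosl2 (0.93), while Fos and Jun had an r of 0.84 and Fos and Batf of −0.58. About the group means, r was 0.80 for Fos and Fosb, 0.77 for Fos and Atf3, and −0.15 for Fos and Batf. These points share groups and myeloid levels and are given as a description. Among 13744 genes above the silent level in some group, those most like Fos were Dusp1 (r = 0.988), Sgk1 (0.958) and Ier5 (0.947), and those most like Jun were Zfp36 (0.899), Ly6e (0.898) and Runx1 (0.888). Those most like Batf were Nup62 (0.942), Mrpl13 (0.934) and Ndufa9 (0.932), and those most like Batf3 were Inppl1 (0.902), Bag3 (0.868) and Fsd2 (0.857). Dusp1 itself had means of 12.50 in naive cells, 9.96 at control 72 h, 11.54 at Stat5ca 72 h and 13.94, 13.93 and 13.85 in the control, Stat5ca and T-betKO transfer groups. By the range of its group means, Fosb lay at the 99.5 percentile of all genes, Fos at the 98.9, Atf3 at the 98.7 and Jun at the 96.6, while Batf, Batf3 and Jund lay at the 73.8, 69.5 and 65.9.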

How the data were processed

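The deposited values of these Affymetrix gene arrays were taken as log2 signals, a scale read from the values. Affymetrix Expression Console is the tool in the submitters' processing notes. The background correction and normalization, not given in the sources used here, were kept as the authors left them. Log2 values ran from 3.13 to 14.94, with array medians of 7.69 to 7.89, and no further scaling was applied. The number of arrays limits the precision. Of 35557 probe sets, 21789 had 1 gene symbol, 1621 several and 12147 none; symbols follow the platform annotation. Each gene took its brightest probe set by mean over 19 arrays, which left 19938 genes. The groups of 16 TCRP1A arrays were fitted together with limma 3.58.1 (lmFit and eBayes) in R 4.3.3, and comparisons with T-betKO arrays used all 19. Calls were made at adjusted p under 0.05 (Benjamini-Hochberg, over all genes). The fits were tested on simulated data.

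The members and lists were chosen with earlier results of these data known. The text names the 9 members everywhere, list genes from among the 4 largest called changes per list and comparison, and the 3 genes most correlated with Fos, Jun, Batf and Batf3. Of those 4, which were printed was decided after their values were seen, with genes near the silent level and some of those losing their call left out. The lists hold other bZIP factors (30 of 31 measured), upstream kinases and factors (15 of 19), composite-site partners (5 of 5), genes with AP-1 sites (11 of 11) and other immediate-early genes (16 of 16). Promoters were searched over 250 bases; the partial CRE, CCAAT box, GC box, serum response element and TGACATCA were added after the sequences were seen. Alternatives changed the gene filter, spread model, normalization, probe set rule, array weights, covariates (RNA integrity number, myeloid level) and arrays in the fit. Those for the order of levels with array weights, covariates or left-out arrays, and all for list genes, were added after the data were seen. No paired analysis was possible because the labels give groups no shared replicate numbers.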

Additional observations from a re-analysis of the deposited data

Results flagged for a closer look

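In all, 2 readings of a member stood apart from the other arrays of a group of 4, by the gap to the nearest other array over the group's range. Junb read 10.74 on naive array 35, against 11.23 to 11.29 on the other 3. Atf3 read 10.26 on Stat5ca transfer array 13, against 11.46 to 11.55, and this array also had the lowest myeloid mean of its group, 9.33; the part of that in the result was not tested. Array 13 was also the lowest of its group for every other member but Batf3, and array 35 was the lowest naive array for Fos, Fosb and Fosl2. With 27 groups examined, chance alone marks about 1 in 20, and the members share their arrays, so these groups are not independent.

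The Stat5ca effect after transfer differed from that at 72 h for Jun, by −2.85, and for Batf, by 0.61, each by limma's test of the difference. The Jun value stayed called under every alternative run, and the Batf value did not when array 9, 10, 30 or 32 was left out.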

How the results depend on the processing

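Of 1899 values of members under an alternative, 1793 kept their direction and side of the threshold, 37 lost a call, 34 gained one and 35 changed sign, none of the last called in either fit. The count of members called ran from 5 to 6 over the alternatives for control 72 h against naive (5 called), from 7 to 9 for control transfer against control 72 h (8) and from 4 to 5 for Stat5ca transfer against Stat5ca 72 h (5). The other counts moved further under the alternatives named next. With 1 array left out, the count of all genes called moved as well. It ran from 98 to 1794 of 19938 for Stat5ca 72 h against control 72 h and from 840 to 4693 for control transfer against naive. For Stat5ca against control transfer it ran from 2716 to 5554. The difference of the Stat5ca effects had 1985 to 4023 and the T-betKO comparison 1790 to 5237. Under the other alternatives the count of all genes called is not given here. A changed count of members under those alternatives is therefore not a result about the members. For Stat5ca 72 h against control 72 h (1 called), the count was 2 without dim genes, 5 with array weights, 3 with the myeloid covariate, 3 with the T-betKO arrays in the fit, 2 without naive arrays 34 and 36, and 1 to 3 when 1 array was left out. For control transfer against naive (6), it was 3 with the myeloid covariate and 1 to 6 when 1 array was left out. For Stat5ca transfer against control transfer (1), it was 2 without dim genes, 2 with an intensity trend, 2 with array weights, 0 with the myeloid covariate and 0 to 2 when 1 array was left out. For the difference of the Stat5ca effects (2), it was 3 without dim genes, 4 with array weights and 1 to 4 when 1 array was left out. For T-betKO against Stat5ca transfer (2), it was 0 with the RNA integrity number, 0 with the myeloid covariate and 0 to 2 when 1 array was left out. Of 45 neighbouring pairs (8), 15 were called with array weights, 10 without dim genes, 7 with centred arrays, 7 with the RNA integrity number, 6 with the myeloid covariate, and 6 to 11 when 1 array was left out.

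Values that changed sign were small. Array weights gave −0.23 for Atf3 and −0.21 for Batf3 at control 72 h against naive, 0.0476 for Junb in the difference of effects and 0.0286 for Batf in the T-betKO comparison. The myeloid covariate gave 0.0345 for Batf at control transfer against naive, 0.0157 for Fos at Stat5ca against control transfer, 0.0489 for Junb in the difference of effects, and −0.0478 for Fos and 0.0151 for Batf in the T-betKO comparison. Quantile normalization gave −0.0174 for Junb at Stat5ca against control transfer and 0.0144 for Batf in the T-betKO comparison, and the RNA integrity number gave −0.14 for Fos there. With 1 array left out, Batf3 ran from −0.13 to 0.21 at control 72 h against naive, and Fosl2 from −0.31 to 0.12 and Junb from −0.26 to 0.30 at Stat5ca 72 h. At Stat5ca against control transfer Fos ran from −0.30 to 0.0315, Fosb from −0.0530 to 0.47, Junb from −0.14 to 0.13 and Jund from −0.0034 to 0.32. In the difference of effects Junb ran from −0.29 to 0.27 and Jund from −0.30 to 0.0280, and in the T-betKO comparison Batf from −0.10 to 0.0794 and Fos from −0.0904 to 0.31. Of 126 called values of list genes, run under 3324 alternatives, 233 lost the call and 3 changed sign, all with the myeloid covariate: Nfe2 (−0.15) and Nr4a1 (−0.23) at control transfer against control 72 h, and Maf (−0.0677) at Stat5ca transfer against Stat5ca 72 h. The cause of these changes was not tested.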
